A study of Mus musculus with 22 samples.

Results

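The acute phase genes expressed by reactive astrocytes were followed in the optic nerve of mice with elevated intraocular pressure (IOP). They comprised 9 genes, Lrg1, Orm1, Orm2, Lcn2, Serpina3n, Steap4, Cp, Hp and Saa3, taken by gene symbol from the 29367 genes of the count table. The list was drawn up with the levels of these genes in all 4 groups already known, so the levels of the 9 genes and the differences between groups are given as descriptions, without p-values of their own. How many of them were past the threshold of a fit is stated beside the share of all genes, and tests are read only for pathway and marker genes outside the list. The pathway and marker lists were also chosen with earlier results of these data known, so their p-values are not independent of that choice. All 9 genes were in the table, and 8 of them passed the filter on low counts over all groups. Orm1 did not.

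The libraries hold mRNA from hemagglutinin (HA)-tagged astrocyte ribosomes (the RiboTag approach) in 2 regions. The optic nerve head (ONH) is the unmyelinated part of the nerve at the eye, and the proximal optic nerve (ONP) is the myelinated stretch just behind it. All mice came from a cross of B6J.129(Cg)-Rpl22tm1.1Psam/SjJ with the B6.Cg-Tg line of GFAP-Cre mice named 73.12Mvs/J, in which Cre driven by the Gfap promoter tags the ribosomal protein RPL22 with HA in Gfap-expressing cells, and their genotype is labelled WT. Every mouse carried the tag and had microbeads injected into the eye to raise the IOP, and tissue was taken 7 or 30 days later. The 4 groups were the ONH and ONP at 7 days (4 libraries each) and at 30 days (7 libraries each), and each of the 22 libraries is a pool of 4 animals (2 males, 2 females). Uninjured nerves are not analysed here, so no value below says how far a gene had moved from its resting level. Both regions were dissected from the same mice, so ONH and ONP pools of a day share animals, but it is not stated whether equal replicate numbers mark the same pool. The 7 day libraries are cited by their numbers in the count table (1, 3, 5 and 6 for the ONH and 1, 2, 5 and 6 for the ONP), which do not follow the replicate numbers of the labels.

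The acute phase response is the change in secreted proteins that follows injury or infection. It is best known from the liver, where IL-6 family cytokines act through the receptor chain gp130 and the transcription factor STAT3, and IL-1 and TNF act through NF-kappaB and C/EBP factors. Astrocytes use part of the same program when they become reactive, and Lcn2, Serpina3n, Steap4 and Cp are often used as markers of that state.

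The genes lie on separate chromosomes apart from the orosomucoid pair. In GRCm38 coordinates, Lrg1 spans chr17:56119678-56122001, Lcn2 chr2:32384633-32388252, Serpina3n chr12:104406729-104414329 and Saa3 chr7:46711998-46715700. Orm1 (chr4:63344560-63348163) and Orm2 (chr4:63362449-63365878) are neighbors. Cp spans chr3:19957054-20009145, Hp chr8:109575128-109579172 and Steap4 chr5:7960457-7982213.

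Upstream sequence was found in RefSeq (GRCm38.p6) for 7 of the 9 genes, in 8 windows because Cp has 2 start sites. Orm1 and Hp were without one. Below, the 250 bases before the start site are printed for the 3 genes past the threshold in the ONP between days (all lower at 30 days), for the only gene with a STAT match, and for the gene most restricted to the ONH. Capitals mark matches on either strand to the STAT motif (TTCNNNGAA), the C/EBP motif (TTNNGNAA) and the IL-6 response motif (CTGGGAA), and neighboring matches may overlap.
Lrg1 (chr17:56121947-56122196, - strand): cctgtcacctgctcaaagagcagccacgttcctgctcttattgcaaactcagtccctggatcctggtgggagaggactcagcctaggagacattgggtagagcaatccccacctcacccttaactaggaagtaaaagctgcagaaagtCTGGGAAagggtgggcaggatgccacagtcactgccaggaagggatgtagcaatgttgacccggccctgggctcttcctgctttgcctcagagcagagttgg
Lcn2 (chr2:32387740-32387989, - strand): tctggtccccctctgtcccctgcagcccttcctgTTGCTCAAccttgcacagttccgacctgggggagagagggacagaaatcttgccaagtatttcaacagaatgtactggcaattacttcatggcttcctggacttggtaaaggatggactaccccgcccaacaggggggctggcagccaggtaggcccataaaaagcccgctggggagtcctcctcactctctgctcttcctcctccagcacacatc
Serpina3n (chr12:104406458-104406707, + strand): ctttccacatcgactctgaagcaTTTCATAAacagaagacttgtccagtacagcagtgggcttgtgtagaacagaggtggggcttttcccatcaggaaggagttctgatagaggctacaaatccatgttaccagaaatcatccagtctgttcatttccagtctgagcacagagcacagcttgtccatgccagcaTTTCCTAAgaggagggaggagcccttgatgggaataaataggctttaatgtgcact
Steap4 (chr5:7960222-7960471, + strand): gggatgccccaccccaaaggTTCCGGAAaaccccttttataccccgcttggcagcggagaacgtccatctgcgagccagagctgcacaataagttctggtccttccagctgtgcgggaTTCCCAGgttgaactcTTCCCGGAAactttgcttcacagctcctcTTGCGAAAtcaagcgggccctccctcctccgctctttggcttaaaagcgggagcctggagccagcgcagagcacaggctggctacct
Orm2 (chr4:63362199-63362448, + strand): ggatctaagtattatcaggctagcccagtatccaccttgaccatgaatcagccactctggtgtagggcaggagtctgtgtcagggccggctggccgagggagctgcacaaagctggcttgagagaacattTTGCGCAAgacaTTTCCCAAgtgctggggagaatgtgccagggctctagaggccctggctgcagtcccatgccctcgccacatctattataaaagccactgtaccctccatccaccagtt
Windows of 300 bases, which also held 50 bases after the start site, were searched on both strands for these motifs and for NF-kappaB (GGG and CC with any 5 bases between) and the glucocorticoid receptor motif AGAACA. The STAT motif was in 1 of the 8 windows, that of Steap4, and in 8.3% of all 32851 RefSeq promoter windows. The C/EBP motif was in 7 of 8 windows, all but that of Lrg1, and in 40.7% of all windows. The IL-6 response motif was in 2 of 8, those of Lrg1 and Steap4, compared with 11.1% of all windows. NF-kappaB matches were in 5 of 8 windows (50.8% of all) and glucocorticoid motif matches in 3 of 8 (19% of all). These matches describe letters in the windows and say nothing of whether a factor bound there.

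Levels are given as CPM, the counts of a gene per 1e+06 counts of its library, with totals scaled by the trimmed mean of M-values (TMM). Library totals ranged from 16292489 to 33307092 counts, and 3 counts, taken as the smallest detectable amount, corresponded to between 0.0897 and 0.191 CPM. Astrocyte markers were abundant in every library (8 of 8 markers detected, summed level 12519 to 30130 CPM). Oligodendrocyte markers were also abundant, and their 8 genes summed to 80847 to 105867 CPM in the ONP at 7 days, 25301 to 83040 CPM in the ONP at 30 days and 13323 to 40751 CPM in the ONH. Because these are bulk libraries, fewer cells of a type and less RNA per cell cannot be told apart.

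**Figure D1:**
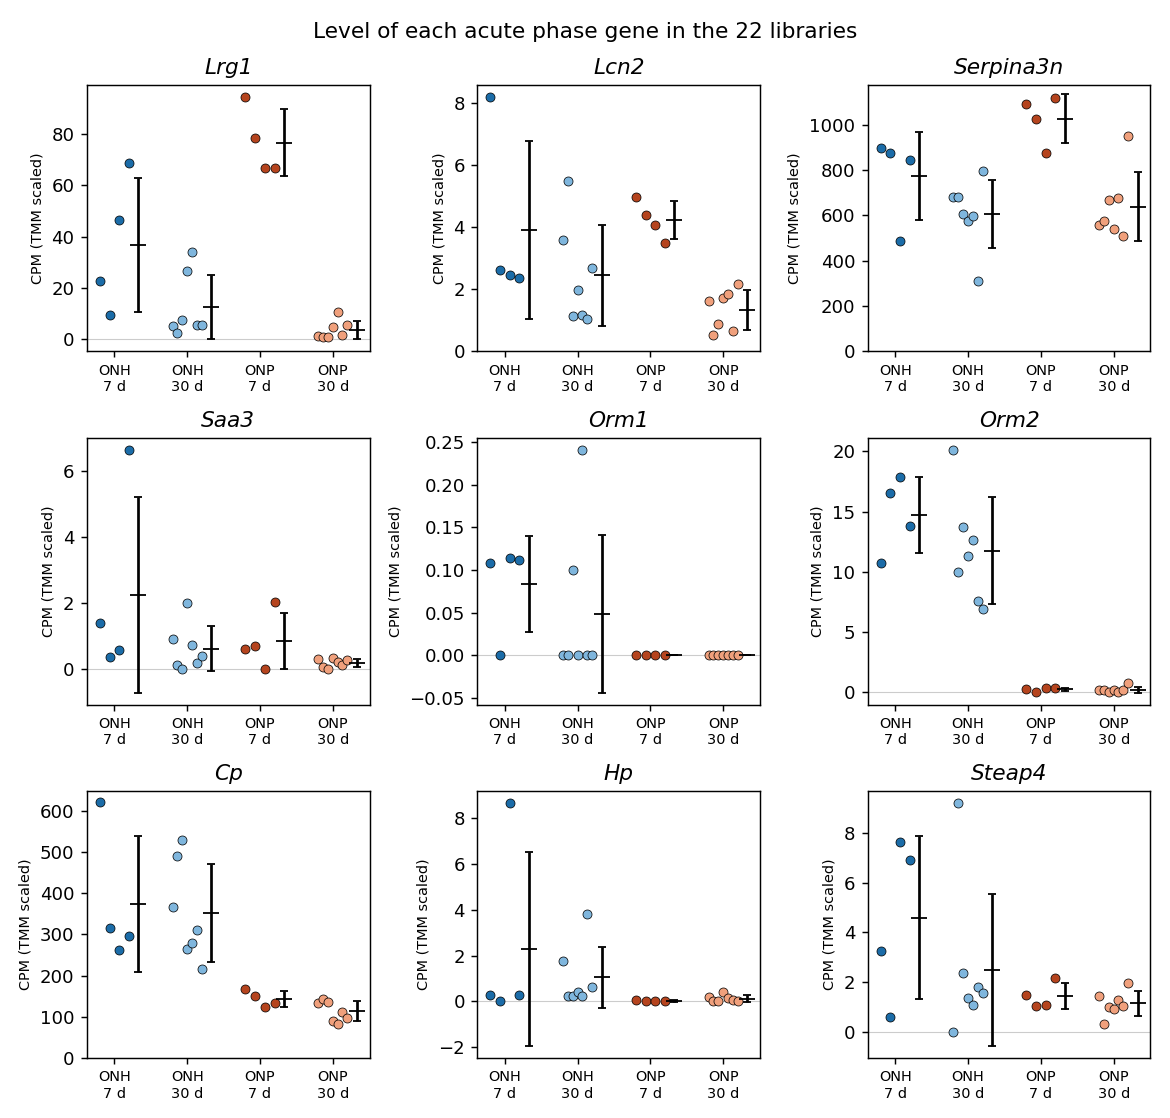
Level of the 9 acute phase genes in each of the 22 libraries, in TMM-scaled CPM on a linear axis that differs between panels. Each point is a library, and the line and bars beside a group are its mean and SD (n = 4 at 7 days, n = 7 at 30 days). Lrg1 was highest in the ONP at 7 days, and Orm2 and Cp were higher in every ONH library than in any ONP library of the same day.

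The difference over time was largest for Lrg1, which encodes a secreted leucine-rich glycoprotein that modulates TGF-beta signaling through endoglin. In the ONP at 7 days Lrg1 was at 94.5, 78.6, 66.9 and 66.6 CPM in libraries 1, 2, 5 and 6. At 30 days it was at 1.40, 1.07, 1.005, 4.75, 10.7, 1.91 and 5.43 CPM in replicates 1 to 7. Every 7 day ONP library was thus above every 30 day one, and the means were 76.6 ± 13.1 (SD, n = 4) and 3.75 ± 3.54 CPM (SD, n = 7). The fitted difference between 30 and 7 days in the ONP was -4.38 (SE 0.56) on the log2 scale.

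In the ONH the same gene was spread widely. Lrg1 was at 22.9, 9.39, 46.6 and 68.6 CPM in the 7 day ONH libraries 1, 3, 5 and 6. At 30 days it was at 5.39, 2.50, 7.38, 26.6, 34.0, 5.79 and 5.72 CPM in replicates 1 to 7. The highest 30 day ONH libraries, replicates 4 and 5, lay within the 7 day range, and the difference was -1.58 (SE 0.67). The order of the group means was therefore ONP at 7 days, ONH at 7 days (36.9 ± 26.2), ONH at 30 days (12.5 ± 12.5) and ONP at 30 days. Neighbors in this order overlapped in their libraries. The time difference in the ONP minus that in the ONH was -2.79 (SE 0.97), and no acute phase gene passed an adjusted p of 0.05 in that contrast, which 0.543% of all 16748 tested genes did.

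Lrg1 is also known as a product of endothelial cells, and markers of those cells moved with it. The summed level of 8 endothelial markers was 103 to 164 CPM in the ONP at 7 days and 12.5 to 102 CPM at 30 days. Of these 8 markers, 5 were lower at 30 days in the ONP past the threshold and none was higher (median log2FC -2.07). In the ONH none passed the threshold (median -1.97). All 8 endothelial markers were detected in every group. The library pair closest in endothelial level, ONP replicate 5 at 30 days (102 CPM) and ONP library 1 at 7 days (103 CPM), held 10.7 and 94.5 CPM of Lrg1. In the ONH, replicate 5 at 30 days (121 CPM) and library 1 at 7 days (119 CPM) held 34.0 and 22.9 CPM. ONH replicate 2 at 30 days (33.4 CPM) and library 3 at 7 days (31.7 CPM) held 2.50 and 9.39 CPM. With the group means removed, the genes most like Lrg1 over the 22 libraries were Tmem204 (r = 0.93), Ly6c1 (r = 0.90) and Esam (r = 0.89), of which Ly6c1 belongs to the endothelial list. That list is short, so absence from it does not mean that a gene is not endothelial. Between days in the ONP, Esam differed by -2.10 (SE 0.47) and Tmem204 by -0.80 (SE 0.47). These libraries share tissue, depth and pool composition, so the r values are descriptions, and the part of endothelial RNA in the Lrg1 difference was not tested.

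**Figure D2:**
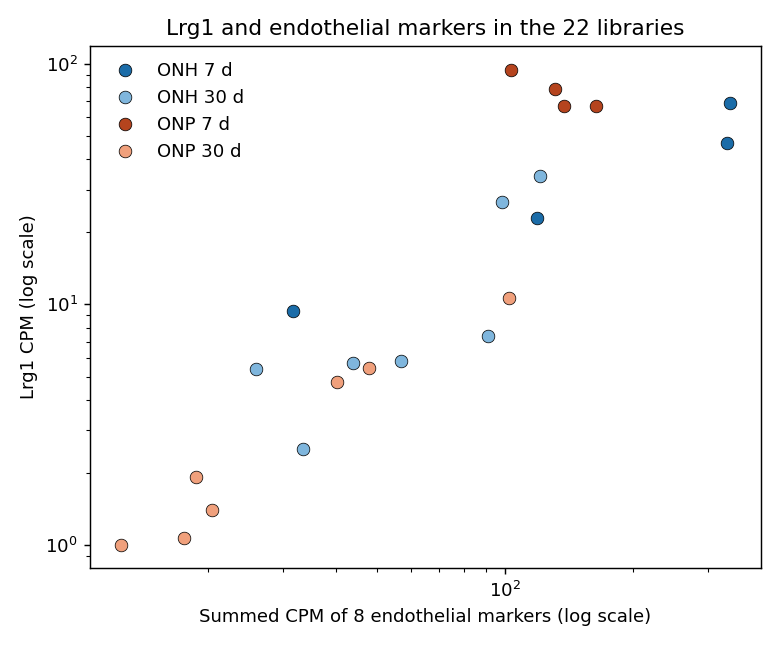
Lrg1 level against the summed level of 8 endothelial markers in the 22 libraries, both in CPM on log scales and colored by group. The 4 ONP libraries at 7 days lie above all other libraries of similar endothelial level, between 66.6 and 94.5 CPM of Lrg1.

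Lcn2, which encodes the iron-siderophore carrier lipocalin 2, was low but differed in the same direction. In the ONP it was at 4.96, 4.39, 4.06 and 3.49 CPM at 7 days (libraries 1, 2, 5 and 6). At 30 days replicates 1 to 7 held 1.62, 0.51, 0.89, 1.71, 1.85, 0.67 and 2.16 CPM. These groups did not overlap (4.23 ± 0.62 and 1.34 ± 0.64 CPM), with a difference of -1.67 (SE 0.38). In the ONH, 1 library set most of the 7 day mean of Lcn2. Library 1 was at 8.19 CPM, whereas libraries 3, 5 and 6 were at 2.63, 2.45 and 2.36 CPM, and the 30 day ONH libraries ran from 1.04 through a median of 1.99 to 5.48 CPM. The ONH difference was -0.70 (SE 0.56), and -0.04 without library 1, which also held the highest summed surface epithelium markers of all libraries (312 CPM, all others between 3.29 and 82.2 CPM). Whether epithelial RNA contributed to that Lcn2 value was not tested.

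Neutrophils are another known source of Lcn2. Of 11 neutrophil markers, 7 were at 0 counts in every ONP library at 7 days, among them Mpo, Elane, Ly6g, Ngp, Camp and S100a8. Their summed level was 15.02 to 26.5 CPM at 7 days and 3.04 to 40.5 CPM at 30 days in the ONP. At 30 days Mpo, Elane, Ly6g, Ngp and S100a9 were at 0 counts in every ONP library. S100a9 had counts in the ONP at 7 days but not at 30 days, and Retnlg, Camp and S100a8 at 30 days but not at 7 days. At 30 days 5 of the 7 ONP libraries (3.04 to 14.95 CPM) lay below every 7 day one, while replicates 7 and 5 (40.5 and 32.6 CPM) lay above, and the median was 19.01 CPM at 7 days and 5.23 CPM at 30 days. Lcn2 in replicates 7 and 5 (2.16 and 1.85 CPM) was the highest of the 30 day ONP libraries. These replicates also held the highest microglia and macrophage sums of that group (2316 and 2084 CPM), so the cell types cannot be told apart here. Only 2 of the 11 neutrophil markers could be tested between days in the ONP, and neither passed the threshold. The part of neutrophil RNA in the Lcn2 difference was not tested.

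Serpina3n, a secreted serine protease inhibitor and a widely used marker of reactive astrocytes, was the most abundant of the 9 genes in every group. Per kilobase of merged exons its mean level was 497 CPM in the ONP and 376 in the ONH at 7 days, and 310 and 294 at 30 days, in the same order. In the ONP it was at 1090, 1024, 876 and 1117 CPM at 7 days (libraries 1, 2, 5 and 6). At 30 days replicates 1 to 7 held 557, 577, 666, 539, 677, 509.8 and 949 CPM. Replicate 7 was above the lowest 7 day library, so that the groups overlapped, while the other 6 were below all 7 day libraries. The difference was -0.71 (SE 0.15), and -0.84 without replicates 5 and 7, the 30 day ONP libraries with the highest summed microglia and macrophage markers (2084 and 2316 CPM, the others at most 701 CPM). Leaving out the same libraries gave -5.22 for Lrg1 and -1.95 for Lcn2. These libraries were picked after seeing the data. They also held the highest 30 day ONP levels of Serpina3n, Lrg1 and Lcn2, so larger differences follow from leaving them out.

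In the ONH, Serpina3n was at 897, 874, 486 and 846 CPM at 7 days (libraries 1, 3, 5 and 6). The 30 day ONH libraries ran from 312 through a median of 605 to 794 CPM, and the difference was -0.38 (SE 0.23). Of the 31-base words in Serpina3n transcripts, 21.6% also occur in transcripts of other genes, with the single largest overlap in Serpina3f (5.9%), so the share of reads from paralogs is uncertain. Lrg1, Lcn2 and Steap4 shared no such word with another gene.

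Saa3, the serum amyloid A made outside the liver, was near the detection limit. In the ONH at 7 days library 6 held 6.62 CPM, and libraries 1, 3 and 5 held 1.40, 0.36 and 0.57 CPM. The 30 day ONH libraries lay between 0 and 1.99 CPM. The ONH difference of -1.88 (SE 1.01) became -0.36 without library 6, which also stood apart in photoreceptor markers (5216 CPM, the other ONH libraries between 79.9 and 1900 CPM) and in meningeal fibroblast markers (2474 CPM, the others between 478 and 1190 CPM). In the ONP, Saa3 was at 0.61, 0.70, 0 and 2.02 CPM at 7 days and at most 0.32 CPM at 30 days. Of the 31-base words in Saa3 transcripts, 7.44% also occur in other genes, with the single largest overlap in Malat1 (2.62%). The share of Saa3 reads from other genes is therefore uncertain. The liver forms were nearly silent. Saa1 was at 0 counts in all ONH libraries at 7 days and reached at most 0.22 CPM elsewhere.

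Read together over time, 3 of the 5 acute phase genes that could be fitted in the ONP were past an adjusted p of 0.05, and all 3 (Lrg1, Lcn2 and Serpina3n) were lower at 30 days. Of all 15491 genes tested, 17% were past that threshold in either direction and 9.21% were lower. Between the ONP groups 2 of 8 genes (all but Orm1) did not overlap, both lower at 30 days, as did 5.79% of all genes tested. Nothing is read from these counts, since the list was chosen on the same values. In the ONH, 8 genes could be fitted and all 8 were lower on average at 30 days (median log2FC -0.80, median of all genes -0.02), but none passed the threshold and no gene had separate groups. The background there was 0% past the threshold (2179 genes of 15668 at an unadjusted p under 0.05, and 446 called by DESeq2) and 2.28% without overlap. Oligodendrocyte markers were lower together with these genes in the ONP, where 6 of 8 fell between days (edgeR, adjusted p under 0.05, median log2FC -0.83), and in the ONH none of 8 passed. Their part in the differences was not tested.

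**Figure D3:**
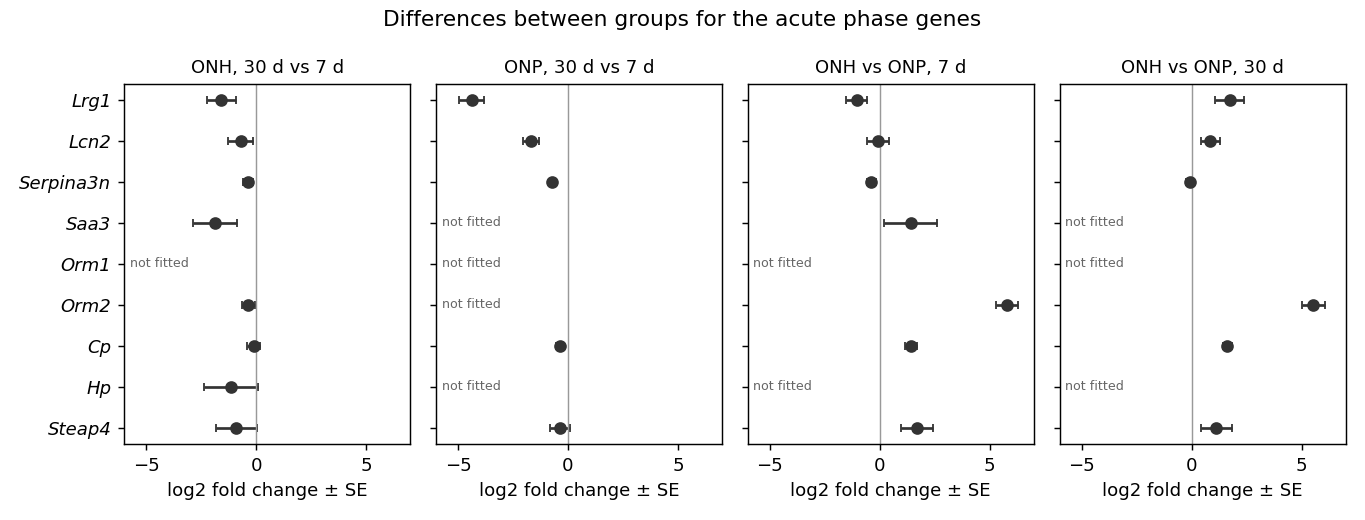
Fitted log2 fold changes of the acute phase genes with their SE, for 30 days against 7 days in each region and for the ONH against the ONP on each day. Genes marked as not fitted failed the filter on low counts in that comparison. Lrg1 was lowest in the ONP comparison (-4.38), and Orm2 was farthest to the right in both comparisons of regions (5.79 and 5.53).

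The orosomucoids, small plasma glycoproteins of the lipocalin family that carry basic and neutral molecules, distinguished the regions rather than the days. Orm2 was at 10.7, 16.5, 17.8 and 13.8 CPM in ONH libraries 1, 3, 5 and 6 at 7 days. At 30 days it was at 20.1, 9.97, 13.7, 11.3, 12.7, 7.60 and 6.90 CPM in ONH replicates 1 to 7. In the ONP no library exceeded 0.37 CPM at 7 days or 0.76 CPM at 30 days, with 0 to 19 counts per library. The ONH exceeded the ONP by 5.79 (SE 0.49) at 7 days and by 5.53 (SE 0.52) at 30 days on the log2 scale. Between days the ONH levels overlapped (14.7 ± 3.15 and 11.7 ± 4.44 CPM), with a difference of -0.35 (SE 0.29).

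Orm3, an orosomucoid that is not one of the 9 genes, gave the same order. It was at 0.741 to 3.08 CPM in the ONH at 7 days and 1.02 to 2.83 CPM at 30 days. In the ONP it had counts in only 1 of 4 libraries at 7 days and 1 of 7 at 30 days, never above 2 counts. The summed counts, 189 in the ONH against 2 in the ONP at 7 days, gave a ratio of 89.8 after scaling to library size (exact 95% interval 24.5 to 747, counting error only). At 30 days 255 counts stood against 1, and the lower bound of the ratio was 45.7. Orm1 was barely detected, with 0 to 6 counts per ONH library and 0 in every ONP library, so no fold is given for it. Of the 31-base words in its transcripts, 27.5% occur in Orm2, and of those in Orm2 34.1% occur in another gene, so a part of the Orm1 and Orm2 counts could be exchanged between them. Orm3 shared 9.42% of its words with Orm2.

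Cp encodes ceruloplasmin, a ferroxidase that astrocytes also carry in a membrane-anchored form. It was at 621, 315, 263 and 297 CPM in ONH libraries 1, 3, 5 and 6 at 7 days. At 30 days it was at 366, 492, 531, 264, 280.2, 310.3 and 216 CPM in ONH replicates 1 to 7. The ONP held 168, 149, 124 and 133 CPM at 7 days and 81.7 to 143 CPM (median 111) at 30 days. Every ONH library thus exceeded every ONP library of its day, by 1.41 (SE 0.27) at 7 days and 1.63 (SE 0.21) at 30 days on the log2 scale. Over time the levels overlapped in both regions, with differences of -0.12 (SE 0.29) in the ONH and -0.37 (SE 0.16) in the ONP, and the ONH value turned to 0.24 without 7 day library 1. Within groups Cp varied most like Cdh2 (r = 0.92), Fzd1 (r = 0.91) and Acsl3 (r = 0.90).

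Haptoglobin (Hp), which binds free hemoglobin, appeared in single libraries. It was at 8.66 CPM in 7 day ONH library 5, and at 0.27, 0 and 0.28 CPM in libraries 1, 3 and 6. At 30 days ONH replicates 6 and 1 held 3.80 and 1.75 CPM, and the other 5 held between 0.22 and 0.65 CPM. In the ONP it was never above 9 counts. The ONH difference over time was -1.16 (SE 1.23) and became 2.50 without library 5. The summed red cell markers were at 252 CPM in 7 day ONH library 5, and at 122 and 418 CPM in 30 day ONH replicates 6 and 1. They were at 2611 CPM in 30 day ONH replicate 7, where Hp was at 0.65 CPM. In the remaining ONH libraries the red cell sums lay between 9.87 and 582 CPM. The source of the Hp RNA was not tested.

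Steap4, a metalloreductase that reduces iron and copper for uptake, was at 3.23, 0.60, 7.64 and 6.90 CPM in the 7 day ONH libraries 1, 3, 5 and 6. At 30 days 1 ONH library, replicate 2, held 9.19 CPM, while the other 6 held 0 to 2.36 CPM. The ONP was steadier, with 1.02 to 2.14 CPM at 7 days and 0.30 to 1.96 CPM at 30 days. The difference between regions was 1.69 (SE 0.71) at 7 days and 1.13 (SE 0.71) at 30 days, and the latter was 0.26 without ONH replicate 2. The regions overlapped for Steap4 on both days.

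Between the regions, 2 of 7 fitted genes at 7 days (Orm2 and Cp) and 3 of 6 at 30 days (Orm2, Lrg1 and Cp) were past the adjusted p of 0.05, all higher in the ONH. Of all genes tested, 13.2% were past it at 7 days (6.34% higher in the ONH) and 41.8% at 30 days (21.8% higher). The count at 30 days was 2 in 7 of the 14 fits that left out 1 library (ONH replicates 4 and 5, ONP replicates 1, 2, 3, 4 and 6). Groups did not overlap for Orm2 and Cp on either day, against 9.89% of all genes at 7 days and 9.26% at 30 days that were separately higher in the ONH. Lrg1 changed its order between days, with a log2 difference (ONH minus ONP) of -1.04 (SE 0.47) at 7 days and 1.74 (SE 0.65) at 30 days.

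Markers of cells at the retinal end moved with the region. All 8 pigment epithelium markers were higher in the ONH on both days past the threshold, at 470 to 3660 CPM summed in the ONH and 143 to 179 CPM in the ONP at 7 days, and at 306 to 2107 CPM against 79.0 to 121 CPM at 30 days. Photoreceptor markers were higher in 6 of 7 at 7 days and in 7 of 7 at 30 days. Within the ONH, replicates 7 and 1 at 30 days (306 and 525.6 CPM of pigment epithelium markers) held 6.90 and 20.1 CPM of Orm2, the lowest and the highest ONH values. Library 3 (470 CPM) and library 6 (3660 CPM) at 7 days held 16.5 and 13.8 CPM. Oligodendrocyte markers were lower in the ONH for 8 of 8 genes at 7 days and 7 of 8 at 30 days. Every ONH library exceeded every ONP library in summed pigment epithelium markers, so region and these markers cannot be told apart. The part of pigment epithelium, photoreceptor and oligodendrocyte RNA in the regional differences was not tested.

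Within groups, covariation was described for the 8 genes that passed the filter, without a test. With group means removed from log2 CPM (0.5 added), r over the 22 libraries ran from -0.69 to 0.52 for their 28 pairs (median 0.06), and 18 pairs were above 0. The libraries share depth and pool composition. Serpina3n and Lcn2 had r = 0.52 and rho = 0.58, and r fell to 0.44 once the 2 most distant libraries (by Serpina3n) were removed. Lrg1 and Saa3 had r = 0.52 and rho = 0.50, and r was 0.59 once the 2 most distant (by Lrg1) were removed. Serpina3n and Hp had r = -0.69 and rho = -0.49, and r = -0.25 after the same removal, so that this pair rested on those libraries.

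Signaling genes upstream of the acute phase response were tested in the same fits. Of 33 such genes in the table, 31 could be tested in the ONP over time, and 1 rose and 6 fell (edgeR, adjusted p under 0.05). Nfkbia, the NF-kappaB inhibitor that is itself an NF-kappaB target, fell by 1.48 (SE 0.16, adjusted p = 0.00043, edgeR) from 221 ± 52.2 to 80.9 ± 14.4 CPM, without overlap (151 to 277 and 62.2 to 105 CPM). Stat3 fell by 0.53 (SE 0.09, adjusted p = 0.0032, edgeR) from 335 ± 46.7 to 237 ± 11.3 CPM, and Cebpd by 0.79 (SE 0.21, adjusted p = 0.024, edgeR) from 80.4 ± 4.32 to 47.6 ± 17.5 CPM. Nfkbiz, a nuclear IkappaB protein that promotes Lcn2 transcription, fell by 1.49 (SE 0.42, adjusted p = 0.029, edgeR), a call lost in 6 of 17 alternative settings as was that of Il11ra1. The remaining falls were those of Il6ra and Il1rap, and the gene that rose was the IL-11 receptor Il11ra1 (0.57, SE 0.16, adjusted p = 0.029, edgeR). Socs3, the feedback inhibitor induced by STAT3, did not pass (14.3 ± 0.49 and 12.9 ± 3.002 CPM), nor did the receptor chains Osmr (-0.31, SE 0.27) and Il6st (0.46, SE 0.21). Cebpb gave 2.38 (SE 0.91, adjusted p = 0.090, edgeR).

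Among other reactivity genes in the ONP, 2 of 31 rose (Srgn and Aspg) and 5 fell. The prostaglandin synthase Ptgs2 fell by 1.47 (SE 0.36, adjusted p = 0.017, edgeR), the chemokine Cxcl10 by 1.33 (SE 0.41, adjusted p = 0.041, edgeR) and vimentin (Vim) by 0.82 (SE 0.18, adjusted p = 0.012, edgeR), the latter from 1956 ± 327 to 1136 ± 283 CPM. The call for Cxcl10 was lost in 12 of 17 alternative settings, single libraries left out included, and that for Aspg in 8. Gfap did not follow Vim, with 12759 ± 2511 and 18167 ± 4208 CPM (log2FC 0.48, SE 0.21, adjusted p = 0.13, edgeR). Timp1 (-0.35, SE 0.42) and Cd44 (-0.05, SE 0.19) did not pass either.

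Of 16 other acute phase genes tested in the ONP, 1 rose and 2 fell. A2m, a protease inhibitor, rose by 1.13 on the log2 scale (SE 0.28, adjusted p = 0.018, edgeR) from 7.72 ± 2.93 to 17.3 ± 4.55 CPM, and Itih3 and C4b fell. Of 24 genes for receptors and iron handling, none rose and 2 fell, Lrp1 and Eng. Eng encodes endoglin, the TGF-beta co-receptor through which LRG1 acts, and fell by 1.58 (SE 0.39, adjusted p = 0.017, edgeR). It is also an endothelial gene, and its fall accompanied that of the endothelial markers given above. The lipocalin 2 receptor Slc22a17 did not pass (-0.30, SE 0.17). In all, 19 of 102 pathway genes passed in the ONP, beside 17% of all genes.

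**Figure D4:**
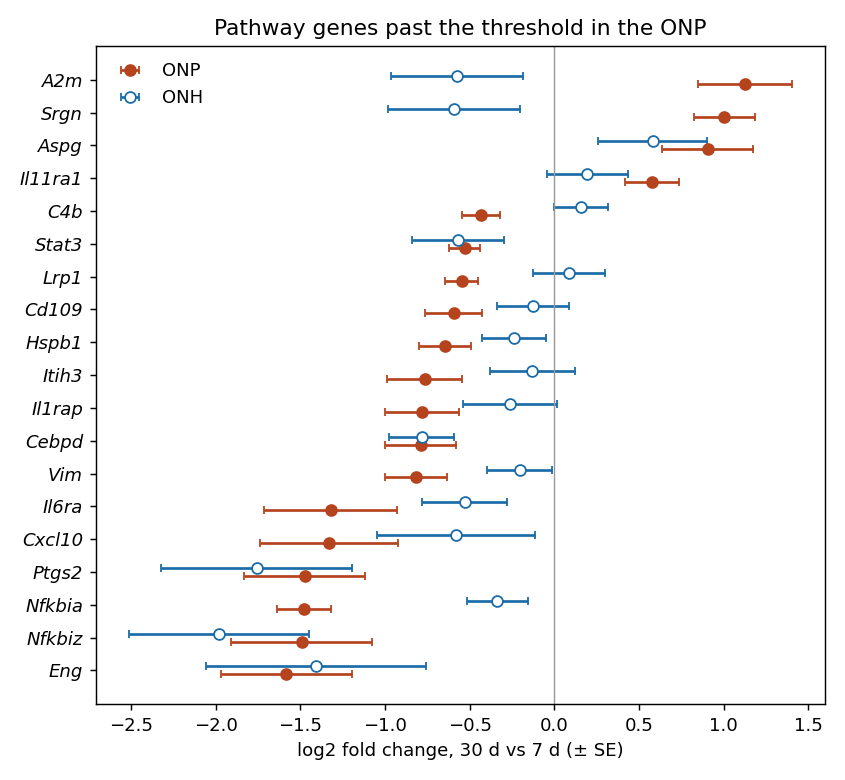
The 19 pathway genes past the threshold in the ONP for 30 days against 7 days, with their log2 fold change and SE in the ONP (filled) and in the ONH (open). In the ONH none of them passed the threshold with edgeR, and Stat3, Cebpd and Ptgs2 had similar values in both regions.

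In the ONH none of 106 pathway genes passed between days with edgeR (25 at an unadjusted p under 0.05), and DESeq2 called 6. Stat3 gave -0.57 (SE 0.27), Socs3 -0.51 (SE 0.22) and Cebpd -0.78 (SE 0.19, adjusted p = 0.18, edgeR). Cebpb gave -3.51 (SE 0.96, adjusted p = 0.19, edgeR). The DESeq2 calls included Cebpd (adjusted p = 0.024, DESeq2) and Cebpb (adjusted p = 0.041, DESeq2). Cebpb was uneven in the ONH at 7 days, between 0.505 and 48.4 CPM. The region by time contrast was past the threshold for 1 of 110 pathway genes, Nfkbia, which fell more in the ONP than in the ONH (difference -1.14, SE 0.26, adjusted p = 0.041, edgeR). That call was lost in 19 of 28 alternative settings.

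Between regions, many pathway genes differed. At 30 days 54 of 100 passed (32 higher in the ONH and 22 lower, 41.8% of all genes), and at 7 days 30 of 100 (21 higher and 9 lower, 13.2% of all genes). Of 31 reactivity genes, 16 were higher and 7 lower in the ONH at 30 days. Fbln5, an elastic fiber protein, was higher by 2.90 (SE 0.28, adjusted p = 2.28e-06, edgeR), Timp1, an inhibitor of matrix metalloproteinases, by 1.76 (SE 0.34, adjusted p = 0.00075, edgeR) and Vim by 1.51 (SE 0.18). Gfap went the other way at 30 days, lower in the ONH (log2 difference -0.50, SE 0.18, adjusted p = 0.040, edgeR), a call lost in 9 of 21 alternative settings. Of 31 signaling genes, 5 were higher and 9 lower. Il6st (gp130) was lower, with log2 differences of -1.42 (SE 0.23) at 30 days and -0.99 (SE 0.21, adjusted p = 0.011, edgeR) at 7 days, and so was Il1rap (-1.63 and -2.13), whereas Cebpd was higher by 1.08 (SE 0.19) and 1.10 (SE 0.20). The oncostatin M receptor Osmr was higher at 30 days (0.72, SE 0.27, adjusted p = 0.042, edgeR), also lost in 9 of 21. Besides Orm3, the plasma proteins Ttr (6.60, SE 0.68) and C2 (1.93, SE 0.20) were higher in the ONH at 30 days. Transthyretin is a product of the pigment epithelium, whose markers were higher in the same libraries. The part of pigment epithelium RNA in the Ttr difference was not tested. Hpx, the hemopexin gene, was at 0 in all 7 day libraries and at most 0.26 CPM at 30 days.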

How the data were processed

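Astrocyte ribosome-bound poly(A) RNA was converted to cDNA by the Smart-Seq HT Ultra-low input method, which does not mark strand. The authors aligned reads to mm10 with STAR 2.6.1d, estimated transcript abundance by Salmon 0.14.2 (Ensembl 94), and added transcripts up per gene. These expected counts were deposited as whole numbers without normalization. The deposited table of DESeq2 1.34.0 variance stabilized values was not used.

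Counts were fitted in R 4.3.3 with edgeR 4.0.16 (filterByExpr by group, TMM, quasi-likelihood test, Benjamini-Hochberg adjustment over all genes tested, threshold 0.05, no fold cutoff), using only the groups compared, or all 4 for the contrast of regions over time. The SE is the log2 fold change divided by the root of F. DESeq2 1.42.0 was an alternative, with RLE size factors, library size only, no filter beyond 1 count, all 4 groups in one fit, the replicate block, and single libraries left out. Leaving out ONP replicates 5 and 7 at 30 days together was chosen after seeing the data. Positions and exon lengths came from GENCODE M21 (GRCm38) and shared words from its transcripts. The scripts were tested on simulated data.

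The members and the pathway and marker lists were chosen with earlier results of these data known. The genes named with values were drawn from the 9 members, 15 pathway genes set by name, the 5 largest rises and falls per comparison among pathway genes past the threshold, and the 3 genes most like each member (log2 CPM, prior count 2). Not all of these are printed. Saa2 is left out, as are several genes between regions, among them Cd36, Tgm1, Tfrc, Lifr and Trf. Il6ra, Il1rap, Itih3, C4b and Lrp1 are named outside this rule to complete short counts. Nothing states that libraries of a group share an animal, and p-values measure the spread between these pools. Depth was 16292489 to 33307092 counts per library, and the limit of 3 counts is for counting error alone, since PCR copies of a molecule are counted too.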

Additional observations from a re-analysis of the deposited data

Results flagged for a closer look

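In each group, the gap between the most extreme library and its neighbor was compared with the range of the group (Dixon's criterion at the 95% level, which describes libraries and not groups). Among 34 such sets of the 9 genes 13 stood out, where chance flags about 1 in 20. Most concern genes that are near 0 in the other libraries, for which it is easily passed.

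In the ONH at 7 days, library 1 was high for Cp (621 CPM) and Lcn2 (8.19 CPM), library 5 was low for Serpina3n (486 CPM) and high for Hp (8.66 CPM), library 6 was high for Saa3 (6.62 CPM), and library 3 was the only one at 0 for Orm1. In the ONH at 30 days, replicate 2 was high for Steap4 (9.19 CPM), replicate 6 for Hp (3.80 CPM) and replicate 5 for Orm1 (0.24 CPM, 6 counts).

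In the ONP, replicate 7 at 30 days was high for Serpina3n (949 CPM) and Orm2 (0.76 CPM, 19 counts). Hp stood out in library 1 at 7 days (0.061 CPM, 1 count) and in replicate 4 at 30 days (0.42 CPM, 9 counts), where the counts are too few to carry weight. 

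The time difference of Nfkbia differed between the regions, with a log2 difference of -1.14 between the ONP and the ONH (edgeR, adjusted p = 0.041). It fell from 221 ± 52.2 to 80.9 ± 14.4 CPM in the ONP, and was at 183 ± 29.1 and 148 ± 32.6 CPM in the ONH.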

How the results depend on the processing

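The number of acute phase genes past the threshold stayed within 1.5 times its main value in every setting and for every library left out. The main values were at most 3 genes, so a change from 3 to 2 or from 2 to 3 stayed within that limit. Between regions at 30 days the count fell from 3 to 2 in 7 of 14 fits without 1 library. No log2 fold change of an acute phase gene or a named pathway gene that passed the threshold as reported changed sign in any setting. Some that had not passed did, among them Cp and Hp in the ONH over time without 7 day libraries 1 and 5, respectively. Of 655 values for the 9 genes, 15 moved by more than the spread within groups, 13 of them on leaving out 1 library and 2 with the replicate block, and of 743 values for named pathway genes 99 no longer passed the threshold.

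Counts of pathway genes depended on the tool and the samples. With DESeq2 the calls were 6 in the ONH over time (0 with edgeR), 30 in the ONP (19) and 5 for the difference between regions over time (1). With all 4 groups in one fit they were 2 in the ONH and 5 in the ONP. For the regional difference over time, size factors by RLE, library size only and no filter beyond 1 count each gave 0. Leaving out 30 day ONP replicates 5 and 7, chosen after seeing the data, gave 33 calls in the ONP and 3 for the regional difference over time. Leaving out 1 library gave 0 to 3 calls in the ONH (3 without 7 day library 5), 9 to 22 in the ONP (9 without 7 day library 2, 12 without 30 day replicate 6) and 0 to 4 for the regional difference (4 without 7 day ONH library 5). Over all genes, the ONH over time gave 446 calls with DESeq2, 2 without the filter, 292 with all groups in one fit and 0 to 167 with 1 library left out (0 in the main fit). The ONP gave 1189 with all groups in one fit and 1439 to 3214 with 1 library left out (2638). The ONH against the ONP at 7 days gave 3210 with DESeq2, 3785 with all groups in one fit and 1102 to 2379 with 1 library left out (1940). The regional difference over time gave 409 with DESeq2, 50 without the filter, 166 without ONP replicates 5 and 7 and 22 to 318 with 1 library left out (91). The cause of these shifts was not tested.

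With the replicate block, the ONH against the ONP at 30 days gave 64 pathway genes (54), 3 acute phase genes (3) and 6717 genes in all (6322), and no call named in the text for that day was lost. At 7 days, where the column numbers 1, 5 and 6 occur in both regions, the block gave 15 pathway genes (30), 2 acute phase genes (2) and 860 genes in all (1940), and of the calls named in the text Il6st (adjusted p = 0.082, edgeR) and Cebpd (adjusted p = 0.067, edgeR) were lost. Calls at 7 days that are not given above were lost too, among them those of Orm3 (adjusted p = 0.051, edgeR) and Vim (adjusted p = 0.055, edgeR). So were those of Lifr (adjusted p = 0.085, edgeR) and Cebpb (adjusted p = 0.69, edgeR). For the regional difference over time the block, chosen after seeing the data, gave 0 pathway genes and 71 genes in all, and Nfkbia had an adjusted p of 0.14 (edgeR). Steap4 between regions at 30 days was 0.42 with the block. Nothing states that equal numbers mark the same pool of mice. The deviations of same-numbered libraries from their group means correlated at r = 0.077 to 0.471 at 30 days (7 pairs) and 0.012 to 0.146 at 7 days (3 pairs), and the ONH library correlated best with the ONP library of its own number in 3 of 7 and 2 of 3 pairs. Between days the mice differ, so that numbers pair nothing. At this depth Orm1, Hp in the ONP and Saa1 lay at or below about 3 counts in most libraries, so differences in them were not detectable.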

Other observations

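Besides Lrg1 and Cp, the genes most alike over the 22 libraries with group means removed were Tmem206 (r = 0.93), Stat6 (r = 0.91) and Gnpda1 (r = 0.91) for Serpina3n, and Apof (r = 0.93), Pde1a (r = 0.86) and Rbp4 (r = 0.84) for Saa3. For Hp they were CAAA01118383.1 (r = 0.89), Hnrnpa2b1 (r = 0.87) and Vkorc1 (r = 0.87). For Steap4 they were Usp27x (r = 0.79), 4930518I15Rik (r = 0.78) and Hykk (r = 0.77), for Orm2 Cdv3 (r = 0.75), Celsr1 (r = 0.71) and Arhgap26 (r = 0.71), and for Lcn2 Trim5 (r = 0.72), 2610020C07Rik (r = 0.70) and Rpf2 (r = 0.70). Each was picked from 16748 genes, and the libraries share depth and pool composition, so these values are descriptions.

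Markers of other cell types also differed over time in the ONP (edgeR, adjusted p under 0.05). Of 8 astrocyte markers 1 rose and none fell. Of 7 mural markers 2 fell, and none of 9 meningeal fibroblast and 10 microglia and macrophage markers passed the threshold. Of 8 surface epithelium markers tested 1 fell. Among markers of the retinal end, 3 of 5 pigment epithelium markers and 1 of 4 photoreceptor markers tested fell, and none rose. None of 5 red cell markers passed.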
